A study of Rattus norvegicus with 6 samples.

Results

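The expression of genes that mark neutrophils was described in lung tissue of rats with bleomycin-induced pulmonary fibrosis (PF) and of control rats. The members were 9 genes taken by name: S100a8, S100a9, Lcn2, Ltf, Mpo, Elane, Prtn3, Csf3r and Padi4. In the deposited table of linear transcripts, 8 of the 9 names had a row, with 11 transcripts between them, among 21210 named genes with 58555 transcripts. The expression of Mpo was not analysed here. Expression was given as FPKM (fragments per kilobase of transcript, scaled to the mapped fragments of the library), and the FPKM of a gene was the sum over all transcripts that carried its name.

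The control group was 3 Sprague-Dawley rats given saline, and the model group was 3 Sprague-Dawley rats given 7 mg/kg of bleomycin in a single intratracheal instillation. All rats were 7 weeks old at the start, and lung specimens were taken after 28 days, with 1 rRNA-depleted library of paired 150-base reads per rat. Bleomycin given in this way injures the alveolar epithelium and raises an acute inflammation that passes before scar tissue is laid down, so a single late time point does not show the acute phase. In lung tissue that was not sorted by cell type, fewer cells of a type and less RNA per cell cannot be told apart. The p-values below measure the spread between 3 rats of each group.

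The aligned bases came to between 6.39 and 7.33 gigabases per library, in paired reads of 150 bases, estimated from the coverage. Lung genes were high in all 6 libraries, with Ager of alveolar type I cells between 272.8 and 411.6 FPKM and Scgb1a1 of airway club cells between 4065 and 7693 FPKM. The library of model rat 3 stood apart in some airway secretory genes, which were singled out after their values were seen. Their values are given below. Over 19203 genes, 293 (1.53%) were called, that is, passed an unadjusted limma p of at most 0.05 and a log2 ratio of group means of at least 1 in size, with 132 higher (0.687%) and 161 lower (0.838%) in the model. With FPKM rescaled to TPM, this split turned to 194 higher and 138 lower. After Benjamini-Hochberg adjustment over all genes, 2 genes (0.0104%) had an adjusted p below 0.05.

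Neutrophils are made in the bone marrow, where precursors transcribe the proteins of the azurophil granules (Mpo, Elane, Prtn3) before those of the specific granules (Lcn2, Ltf), and most of these messages are switched off before the cell enters the blood. Mature neutrophils keep the messages of the calcium-binding proteins S100a8 and S100a9, which form calprotectin, and of the receptor Csf3r, which binds granulocyte colony-stimulating factor. Padi4 encodes an enzyme that turns arginine of histones into citrulline and takes part in the release of neutrophil extracellular traps. Some members are not limited to neutrophils: Lcn2 is also made by injured epithelium, and Ltf by glands of the airway.

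Sequence upstream of the transcription start was taken from RefSeq (assembly GRCr8) for Csf3r, Lcn2, Ltf, Mpo, Prtn3 and S100a9, which were the 6 of the 9 names that matched. A window of the 250 bases before each start was searched on both strands for TATAAA, the core of a promoter element that places the start, for TTGCNNAA, a site of C/EBP factors, where N is any base, and for a site of NF-kB in which GGGA is followed, after any 4 bases, by CC. These motifs occurred in 12.9%, 9.22% and 16.4% of 33469 promoter windows of that length. S100a9 and Lcn2 were the members whose window held a match, and the stretches are shown because they also are the most abundant members read from a single annotated transcript. The S100a9 stretch is chr2:178490623-178490872 on the minus strand, with TATAAA in capitals at positions -42 to -37 from the start. The Lcn2 stretch is chr3:36081931-36082030 on the minus strand, positions -250 to -151 from the start. Its capitals mark an NF-kB match on either strand at -243 to -233, where both matches overlap, and a C/EBP match at -191 to -184.
S100a9: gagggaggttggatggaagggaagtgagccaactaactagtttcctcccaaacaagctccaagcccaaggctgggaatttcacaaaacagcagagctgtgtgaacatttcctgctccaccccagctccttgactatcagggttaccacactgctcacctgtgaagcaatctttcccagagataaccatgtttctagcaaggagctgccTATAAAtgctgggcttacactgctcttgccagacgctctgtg
Lcn2: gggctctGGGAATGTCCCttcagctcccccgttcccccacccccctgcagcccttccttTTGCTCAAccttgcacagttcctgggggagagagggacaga
These matches describe letters and not binding.

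None of the 6 tested members was called, against 1.53% of all genes tested, and none had an unadjusted p of at most 0.05, against 4.90% of all genes. The 3 control and 3 model values overlapped for each of the 6, while 10.7% of all genes had groups that did not overlap. The difference in log2(FPKM + 1), model minus control, was above 0 in S100a8, Lcn2 and Prtn3 and below 0 in S100a9, Csf3r and Padi4, and it was above 0 in 47.7% of all genes tested. The median over these 6 was -0.06, with a median of -0.01 over all genes and a middle range from -0.11 to 0.09. Elane and Ltf had FPKM above 0 in fewer than 3 of the 6 libraries and were not tested.

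**Figure D1:**
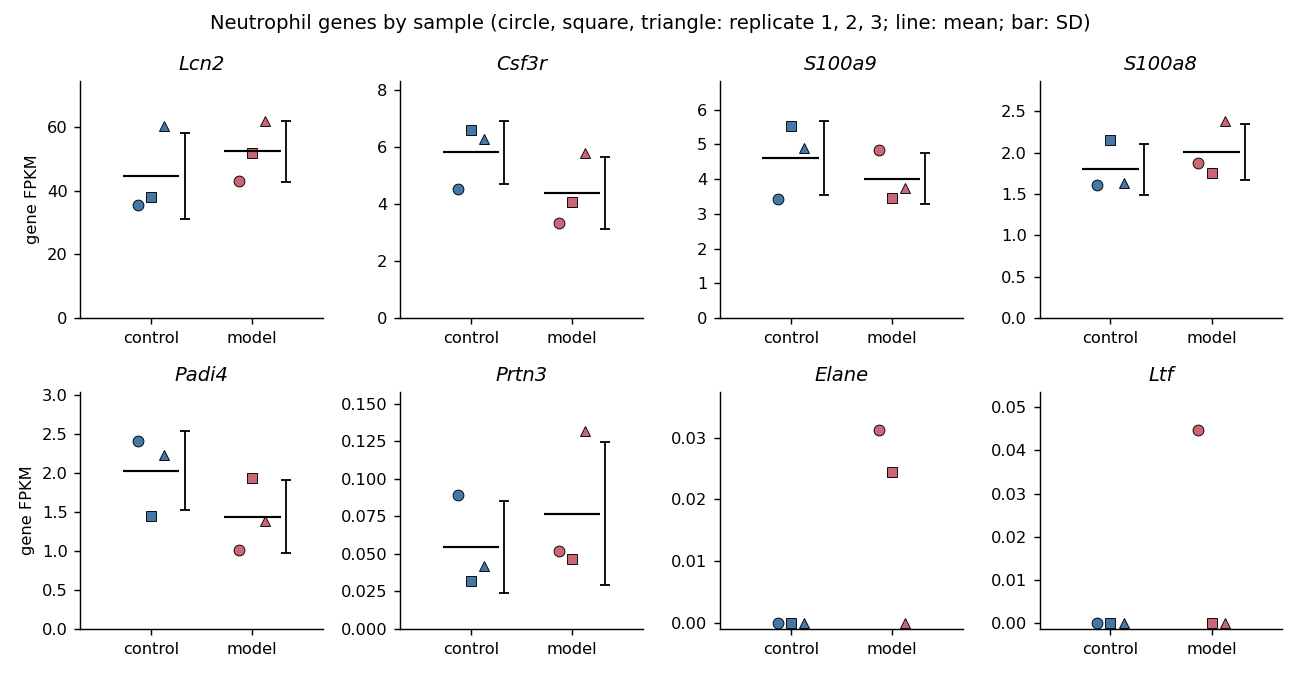
Gene FPKM (vertical axes, each starting at or just below 0) of the 8 neutrophil genes in the 3 control and 3 model libraries, with lines for group means and bars for the SD (n = 3) except for Elane and Ltf, which are listed at 0 in most libraries. The control and model points overlap in every panel, and Elane, Ltf and Prtn3 stay below 0.15 FPKM.

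S100a8 (ENSRNOT00000015473) and S100a9 (ENSRNOT00000015351) lay 23199 bases apart on chromosome 2, in the coordinates of the deposited table, whose genome build was not given in the sources used here. S100a8 was on the plus strand at chr2:190073815-190074354 with 2 exons, and S100a9 on the minus strand at chr2:190097554-190100276 with 3 exons. S100a8 was at 1.61, 2.16 and 1.63 FPKM in control rats 1 to 3 and at 1.87, 1.75 and 2.39 FPKM in model rats 1 to 3. Model rat 3 was the highest and control rat 1 the lowest, and the groups overlapped. The means were 1.80 ± 0.31 FPKM (SD, n = 3) in the control and 2.002 ± 0.34 FPKM (SD, n = 3) in the model. The difference was 0.10 in log2(FPKM + 1), with an SE of 0.14 and a 95% interval from -0.25 to 0.45 (limma adjusted p = 0.954; exact two-sided permutation p = 0.5).

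S100a9 was at 3.44, 5.53 and 4.88 FPKM in the control rats and at 4.84, 3.45 and 3.75 FPKM in the model rats. Both the highest and the lowest value were in control rats. The means were 4.62 ± 1.07 and 4.02 ± 0.73 FPKM (SD, n = 3), and the difference was -0.16 in log2(FPKM + 1) with a 95% interval from -0.61 to 0.30 (limma adjusted p = 0.945; exact permutation p = 0.5). It was -0.31 without control rat 1 and -0.038 without control rat 2. S100a9 was above S100a8 in all 6 libraries, at 2.57 ± 0.42 times its FPKM in the control and 2.04 ± 0.51 times in the model (SD, n = 3). These levels rested on few reads, with a mean of 32.9 estimated reads per library for S100a8 and 105 for S100a9. With 3 rats per group, the smallest p that the exact permutation test allows is 0.1.

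Lcn2 encodes neutrophil gelatinase-associated lipocalin, which binds the siderophores that bacteria use to take up iron. Lcn2 (ENSRNOT00000018776, chr3:11414186-11417546, minus strand, 6 exons) was the most abundant member, with a mean of 1992 estimated reads per library. It was at 35.6, 38.1 and 60.2 FPKM in the control rats and at 43.1, 52.0 and 62.0 FPKM in the model rats. The third rat of each group was its highest, and control rat 3 was above model rats 1 and 2. The means were 44.6 ± 13.6 and 52.4 ± 9.47 FPKM (SD, n = 3). The difference of 0.25 in log2(FPKM + 1) had an SE of 0.23 and a 95% interval from -0.29 to 0.79 (limma adjusted p = 0.934; exact permutation p = 0.5). It was 0.11 without control rat 1, 0.48 without control rat 3, with an unadjusted limma p of 0.0277, and 0.12 without model rat 3, and Lcn2 was called in none of these cases.

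Some genes of airway secretory cells were highest in the library of model rat 3, the rat in which S100a8, Lcn2 and Prtn3 were highest. The following genes were singled out after their values were seen. Bpifa1, a secreted protein of the upper airway, was listed at 0 in 4 libraries, at 0.135 FPKM in control rat 3 and at 95.8 FPKM in model rat 3. Muc5b, a gel-forming mucin, was between 1.59 and 3.68 FPKM in the other libraries and at 22.2 FPKM in model rat 3. Scgb3a1 was between 1.46 and 6.45 FPKM elsewhere and at 47.0 FPKM there, and Bpifb1 between 4.75 and 12.1 FPKM elsewhere and at 40.6 FPKM there. The club cell genes did not share this order, since Scgb1a1 was 7693 FPKM in control rat 3 and 6140 FPKM in model rat 3. Over the whole list of 10 airway secretory markers, of which 8 were in the table, the summed level was between 4699 and 7992 FPKM in the control and between 4258 and 6650 FPKM in the model. The part of airway cells in the Lcn2, S100a8 and Prtn3 values was not tested. Without model rat 3, the differences in log2(FPKM + 1) were 0.01 for S100a8, -0.007 for Prtn3 and -0.53 for Csf3r, the last with an unadjusted p of 0.0329, and no member was called.

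**Figure D2:**
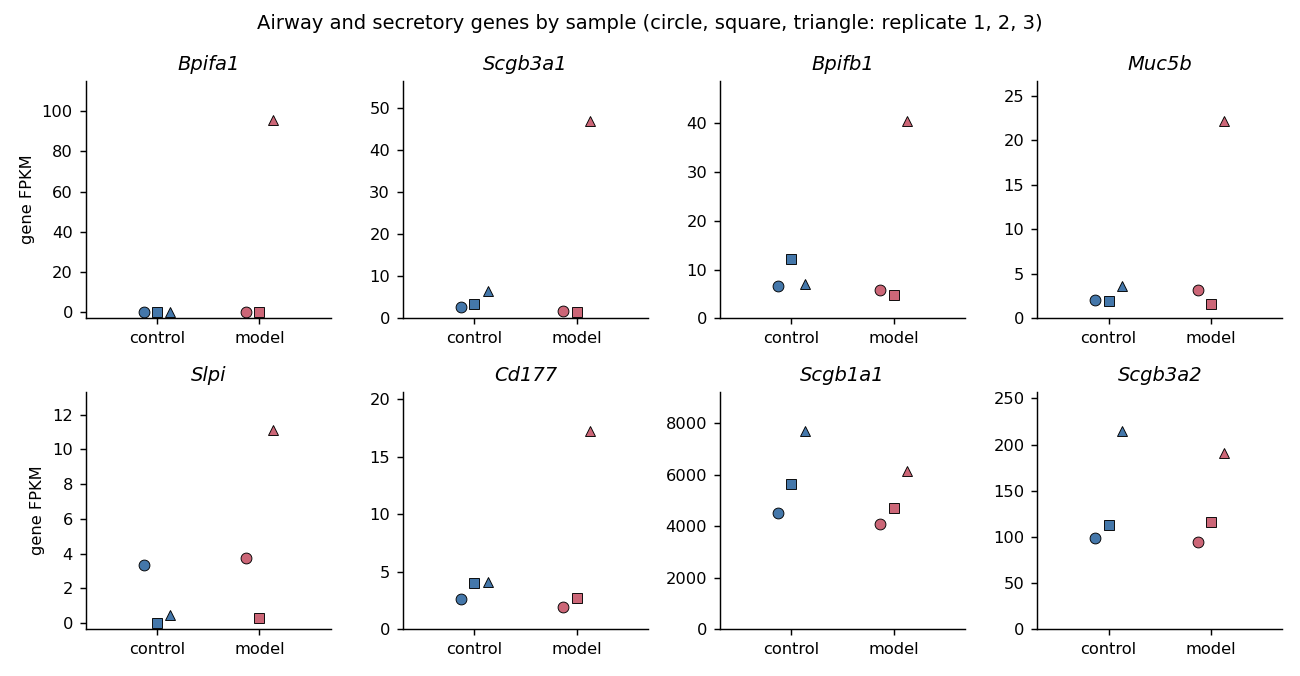
Gene FPKM (vertical axes) of airway and secretory genes in the 3 control and 3 model libraries, each point a library. The triangle of model rat 3 stands above all other points for Bpifa1, Scgb3a1, Bpifb1, Muc5b, Slpi and Cd177, while control rat 3 is highest for Scgb1a1 and Scgb3a2.

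Ltf (ENSRNOT00000047752, chr8:119290416-119313261, plus strand, 17 exons) encodes lactoferrin, an iron-binding protein of the specific granule. It was listed at 0 in 5 libraries and at 0.0447 FPKM in model rat 1, which came to 5.98 estimated reads. A count of 0 allows up to 3 reads, or between 0.0222 and 0.0255 FPKM in these libraries, with counting error only. No fold was formed for Ltf. Lcn2, a protein of the same granule, was at 35.6 FPKM or more in each of these libraries.

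The serine proteases of the azurophil granule were near the floor of the assay. Prtn3 (proteinase 3, ENSRNOT00000014687, chr7:12643516-12646960) and Elane (neutrophil elastase, ENSRNOT00000014981, chr7:12638322-12640232) lay side by side on the minus strand, 3283 bases apart, with 5 exons each. Prtn3 was at 0.089, 0.032 and 0.042 FPKM in the control rats and at 0.052, 0.047 and 0.132 FPKM in the model rats, which came to between 1.33 and 5.88 estimated reads per library. The difference was 0.03 in log2(FPKM + 1) with a 95% interval from -0.10 to 0.15 (limma adjusted p = 0.967; exact permutation p = 0.5), and this scale compresses changes at such low levels. Elane was listed at 0 in the 3 control rats and in model rat 3, and at 0.031 and 0.024 FPKM in model rats 1 and 2, at most 1.46 estimated reads (exact permutation p = 0.4). At this depth, where 3 reads of Elane correspond to between 0.0635 and 0.0728 FPKM, a difference between the groups was not detectable.

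Csf3r was the sum of 3 transcripts, of which the annotated one gave 39.2% of the FPKM over the 6 libraries but 74.0% of the estimated reads, since FPKM is per length and the others are shorter. The summed FPKM was 4.55, 6.62 and 6.30 in the control rats and 3.33, 4.07 and 5.79 in the model rats. Control rats 2 and 3 were above all model rats, and control rat 1 was above model rats 1 and 2. The means were 5.82 ± 1.12 and 4.40 ± 1.26 FPKM (SD, n = 3), and the difference was -0.35 in log2(FPKM + 1) with an SE of 0.21 and a 95% interval from -0.85 to 0.15 (limma adjusted p = 0.934; exact permutation p = 0.2). With transcripts weighted by their lengths the difference was -0.10, and it ran from -0.53 without model rat 3 to -0.20 without model rat 1.

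The Csf3r transcripts did not share this pattern. The annotated transcript ENSRNOT00000011694 (chr5:144031402-144051600, plus strand, 16 exons) was at 1.82, 2.67 and 1.40 FPKM in the control rats and at 1.82, 1.60 and 2.72 FPKM in the model rats. Its groups overlapped throughout, with a difference of 0.05 in log2(FPKM + 1) (limma adjusted p = 0.992 over all transcripts tested). With the annotated transcripts alone, the sign of the Csf3r difference was thus opposite to that of the sum, and neither passed the test. The assembled transcript MSTRG.28972.2 began near the same start but ended within the gene (chr5:144031425-144040629, 8 exons) and shared a splice junction with the annotated one. It was at 1.61, 1.93 and 3.34 FPKM in the control rats and at 1.43, 1.54 and 0.912 FPKM in the model rats. All 3 control values were above all 3 model values (groups did not overlap, in either direction, for 10.4% of all transcripts tested), and the difference was -0.50 in log2(FPKM + 1) with an SE of 0.25 and an unadjusted limma p of 0.093 (adjusted p = 0.945). Without control rat 3 it was -0.28. The assembled transcript MSTRG.28973.1 was a single exon of 352 bases with no strand, 702 bases beyond the end of the gene (chr5:144052303-144052654). It was at 1.11, 2.02 and 1.56 FPKM in the control rats and at 0.079, 0.939 and 2.16 FPKM in the model rats, with model rats at both ends of the range, and its difference of -0.44 in log2(FPKM + 1) became -0.037 without model rat 1 and -0.81 without model rat 3. A transcript with no strand beside a gene may not be part of it, and its share of the summed Csf3r FPKM ran from 2.36% in model rat 1 to 37.3% in model rat 3.

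Padi4 was carried mainly by sequence outside its annotated exons. The annotated transcript ENSRNOT00000009081 (chr5:159260675-159293673, minus strand, 16 exons) gave 16.6% of the summed FPKM and 7.29% of the estimated reads, at 0.375, 0.303 and 0.144 FPKM in the control rats and 0.277, 0.281 and 0.349 FPKM in the model rats. The rest came from MSTRG.29393.1, an assembled single exon of 5680 bases that lay inside an intron of the gene (chr5:159281970-159287649), at 2.03, 1.15 and 2.08 FPKM in the control rats and at 0.728, 1.65 and 1.03 FPKM in the model rats. The summed Padi4 FPKM was 2.41, 1.45 and 2.22 in the control and 1.01, 1.93 and 1.38 in the model, with means of 2.03 ± 0.51 and 1.44 ± 0.47 FPKM (SD, n = 3). Control rats 1 and 3 were above all model rats and control rat 2 was not. The difference was -0.31 in log2(FPKM + 1) for the sum, with a 95% interval from -0.79 to 0.16 (limma adjusted p = 0.934; exact permutation p = 0.2), -0.37 for the intronic transcript and 0.04 for the annotated transcript. Leaving out single rats moved the sum between -0.18 (without model rat 1) and -0.46 (without control rat 2). Reads from an intron of the unspliced message and from a separate transcript cannot be told apart in these values.

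**Figure D3:**
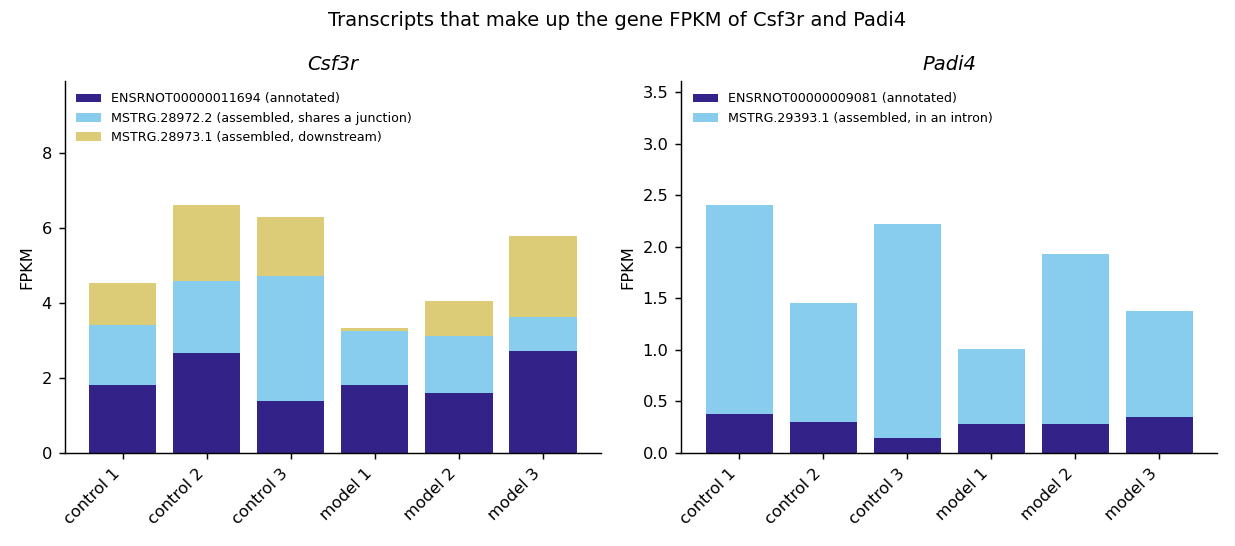
FPKM (vertical axes, from 0) of each transcript, stacked by library, for Csf3r and Padi4. The annotated transcript is the lowest part of each bar and makes up between 22.1% and 54.6% of Csf3r and between 6.48% and 27.6% of Padi4.

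Over transcripts, 9 of the 11 were tested and none was called, against 1934 of 64867 transcripts (2.98%; 1.22% higher and 1.76% lower in the model). None of the 9 had an unadjusted p of at most 0.05, against 4.53% of all transcripts. The widest interval among the Csf3r and Padi4 transcripts belonged to MSTRG.28973.1, and those of the genes reached 0.79 upwards for Lcn2 and -0.85 downwards for Csf3r.

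**Figure D4:**
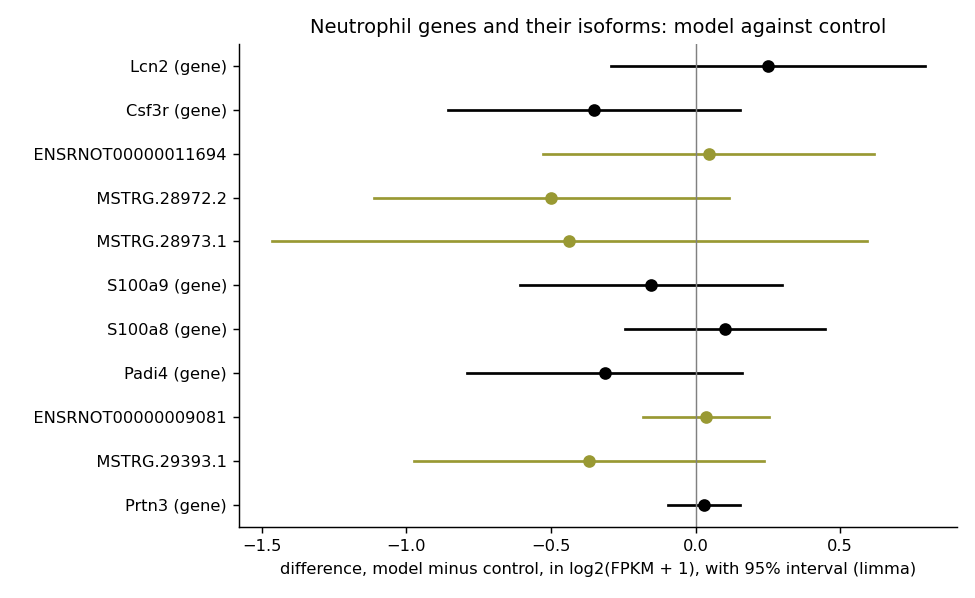
Difference between model and control in log2(FPKM + 1) (horizontal axis) with its 95% interval from limma, for the 6 tested neutrophil genes (black) and for the transcripts of Csf3r and Padi4 (olive). Every interval spans 0.

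Levels per transcript length set the members in an order. Lcn2 was highest in all 6 libraries, at 9.49 times the mean FPKM of Csf3r, and it made up between 70.7% and 82.2% of the members' summed FPKM. Csf3r and S100a9 did not differ beyond their spread, since Csf3r was higher in 5 of the 6 libraries and their ranges overlapped. S100a9 lay above S100a8 without overlap, at 2.27 times its mean FPKM. S100a8 and Padi4 overlapped, with S100a8 higher in 3 of 6 libraries. The places of Csf3r and Padi4 turned on their assembled transcripts. With the annotated transcript alone, Csf3r (1.40 to 2.72 FPKM) was below S100a9 and Padi4 (0.144 to 0.375 FPKM) below S100a8 in all 6 libraries. Padi4 lay above Prtn3 without overlap in either reading, and Prtn3, Elane and Ltf were too near the floor of 3 reads to be ranked. Among other genes of neutrophils, the chemokine receptors Cxcr2 and Cxcr1 were between 1.04 and 2.20 FPKM and between 4.24 and 7.42 FPKM. The gelatinase Mmp9 was between 0.348 and 0.601 FPKM.

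The members did not rank the rats alike. Model rat 3 was highest for S100a8, Lcn2 and Prtn3, control rat 2 for S100a9 and Csf3r, and control rat 1 for Padi4. Across the 6 libraries, the Pearson r of log2(FPKM + 1) was 0.20 between S100a8 and S100a9, 0.35 between S100a8 and Csf3r and 0.25 between Lcn2 and Csf3r. Over all pairs of the 6 tested members, r ran from -0.67 (S100a8 and Padi4) to 0.41 (S100a8 and Prtn3). It was -0.61 between S100a9 and Prtn3. These are descriptions over 6 libraries of similar depth, and the part of tissue composition in them was not tested. Without Lcn2, the members summed to 14.3 ± 1.96 FPKM in the control and 11.97 ± 1.28 FPKM in the model (SD, n = 3). The groups overlapped, with control rat 1 at 12.1 FPKM and model rat 3 at 13.4 FPKM. The sums include the assembled transcripts of Csf3r and Padi4, which had lower means in the model. The annotated transcripts of Csf3r and Padi4 averaged 1.96 and 0.274 FPKM in the control and 2.04 and 0.302 FPKM in the model.

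Among 13885 genes with a mean of at least 1 FPKM, those most like S100a8 over the 6 libraries were AC114393.1 (r = 0.996), Gpr183 (r = 0.990) and Fiz1 (r = 0.989). Gpr183, an oxysterol receptor of immune cells, was at 3.04, 5.11 and 3.19 FPKM in the control rats and at 3.67, 3.44 and 5.60 FPKM in the model rats. The choice of these genes by r fixes that they rank the libraries much like S100a8. The genes most like Prtn3 were Kdelc2, Ubac1 and Wdr37, each at r = 0.986. In all, 144 genes reached r above 0.9 with S100a8 and 232 with Prtn3, whose values rest on few reads.

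A circular RNA from a member was found for Csf3r alone. It joined 2 exons of ENSRNOT00000011694 (chr5:144038462-144038971), within the part of the gene that MSTRG.28972.2 spans, and its back-splice junction was read 1, 0 and 1 times in control rats 1 to 3 and 0, 0 and 1 times in model rats 1 to 3. It was 1 of 5216 circular RNAs in libraries with between 2037 and 2964 back-splice reads, and 3 reads in all allow no comparison between the groups.

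The genes around the members were read from lists of granule proteins, receptors, chemoattractants, oxidase subunits, transcription factors and S100 relatives. Of 80 names, 68 were in the table and 67 were tested, and none was called in either direction, against 1.53% of all genes. An unadjusted p of at most 0.05 was found for 4 of the 67 (5.97%, beside 4.90% of all genes), Cd63, Myb, Ncf1 and S100a16, each with an adjusted p of 0.934. The groups did not overlap for 7 of the 67 (10.4%), close to the 10.7% of all genes. The difference in log2(FPKM + 1) was above 0 for 33 of the 67 (49.3%, beside 47.7% of all genes), and their median was -0.001.

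The azurophil granule list also held the transcription factor Myb. Of its 5 tested genes, 2 had an unadjusted p of at most 0.05, in opposite directions, beside 4.90% of all genes. The groups did not overlap for the same 2, beside 10.7% of all genes. Cd63, a tetraspanin of the granule membrane that most other cells also carry on lysosomes, was at 30.7, 30.3 and 30.4 FPKM in the control rats and at 37.2, 34.7 and 38.7 FPKM in the model rats. Its difference in log2(FPKM + 1) was 0.27 with an SE of 0.07 (unadjusted limma p of 0.00782, adjusted p of 0.934). Myb, a transcription factor of blood progenitors, averaged 5.05 FPKM in the control and 3.46 FPKM in the model, with a difference of -0.43 and an SE of 0.16 (unadjusted limma p of 0.0369, adjusted p of 0.934). The Cd63 difference was between 0.23 and 0.35 under all alternatives. The Myb difference was 0.07 with annotated transcripts alone, -0.27 with length-weighted FPKM (unadjusted p of 0.0761) and -0.28 without control rat 3 (unadjusted p of 0.0935). The most abundant gene of the list was Lyz2, the lysozyme of phagocytes and alveolar cells, between 4434 and 6127 FPKM.

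Of 12 tested genes of the specific and gelatinase granules, none had an unadjusted p of at most 0.05, and the median difference in log2(FPKM + 1) was 0.003. Camp (cathelicidin) was between 0 and 0.555 FPKM, Ngp between 0.199 and 0.411 FPKM and Mmp8 between 0.294 and 0.696 FPKM. Fcnb, Pglyrp1 and Cd177 of the same list were higher, with Fcnb between 2.41 and 4.23 FPKM. The most abundant genes of this list were Chi3l1, between 11.2 and 17.5 FPKM, and Hp (haptoglobin), between 5.58 and 10.1 FPKM, and both are also made outside neutrophils. Pglyrp1, which binds bacterial peptidoglycan, averaged 3.48 FPKM in the control and 2.71 FPKM in the model without overlap, and the difference of -0.26 did not pass (unadjusted limma p of 0.133, adjusted p of 0.934). It was -0.099 with length-weighted FPKM, -0.14 without control rat 1 and -0.50 with annotated transcripts alone. The last had an unadjusted limma p of 0.0361 and an adjusted p of 0.972. Cd177, a surface glycoprotein of neutrophils, was between 1.89 and 4.06 FPKM in 5 libraries and at 17.2 FPKM in model rat 3, the library with high airway genes. Its difference was 0.36 in log2(FPKM + 1) and became -0.46 without model rat 3 and -0.64 with annotated transcripts alone, whose means were 0.709 FPKM in the control and 0.0863 FPKM in the model. In that last setting Cd177 passed both thresholds, lower in the model (unadjusted limma p of 0.00432, adjusted p of 0.964). Slpi, an inhibitor of elastase that airway glands secrete, was at 3.33, 0 and 0.485 FPKM in the control rats and at 3.76, 0.30 and 11.1 FPKM in the model rats. Cd177 and Slpi were singled out after their values were seen.

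The list of neutrophil receptors and adhesion molecules also held Il1b and G0s2. Of its 18 tested genes, none had an unadjusted p of at most 0.05, with a median difference of -0.008. The most abundant were Itgb2, the chain shared by the leukocyte integrins, between 26.7 and 31.6 FPKM, and G0s2, between 22.7 and 38.0 FPKM. Trem3, a receptor of myeloid cells, was at 2.34, 2.26 and 2.48 FPKM in the control rats and at 1.70, 1.53 and 2.03 FPKM in the model rats. Its groups did not overlap, and its difference of -0.29 in log2(FPKM + 1) had an unadjusted limma p of 0.0524 (adjusted p = 0.934). The unadjusted limma p was 0.0188 with length-weighted FPKM, 0.0471 with median-of-ratios scaling and 0.163 with TPM.

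The list of chemoattractants also held the cytokines Csf2, Csf3, Tnf and Il1a. Of its 10 tested genes, none had an unadjusted p of at most 0.05 or groups without overlap, and the median difference was -0.15. Cxcl1, a ligand of Cxcr2, was at 10.4, 19.0 and 22.1 FPKM in the control rats and at 14.9, 17.6 and 4.73 FPKM in the model rats. Cxcl3, a further ligand of Cxcr2, was at 23.5, 62.1 and 97.7 FPKM in the control rats and at 108.3, 93.6 and 38.8 FPKM in the model rats. The spread among rats of one group was wide for both, and model rat 3 was lowest for Cxcl1 while control rat 1 was lowest for Cxcl3.

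Of 5 tested subunits of the phagocyte NADPH oxidase, Ncf1 (p47phox) alone had an unadjusted p of at most 0.05, beside 4.90% of all genes. Ncf1 was at 9.55, 9.25 and 8.26 FPKM in the control rats and at 16.3, 10.7 and 10.7 FPKM in the model rats, without overlap. Its difference was 0.42 with an SE of 0.17 (unadjusted limma p of 0.047, adjusted p of 0.934). Model rat 1 was the highest, and without it the difference was 0.23 with an unadjusted p of 0.0860. The unadjusted p was also above 0.05 with length-weighted FPKM (0.0696) and with annotated transcripts alone (0.103). Cybb, its partner that carries electrons across the membrane, was between 13.5 and 21.1 FPKM in the control and between 15.0 and 19.7 FPKM in the model. Rac2 was between 29.1 and 40.6 FPKM over all libraries, and the groups of both genes overlapped.

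Of 7 tested factors of granulopoiesis, none had an unadjusted p of at most 0.05, with a median difference of 0.10. Cebpa, which starts the granulocyte programme, averaged 13.8 FPKM in the control and 15.8 FPKM in the model without overlap (unadjusted limma p of 0.0817, adjusted p of 0.934). Its difference of 0.18 in log2(FPKM + 1) was 0.11 without model rat 2. Runx1 was the most abundant, between 54.5 and 71.8 FPKM, followed by Cebpb, between 17.2 and 24.9 FPKM. These factors also act in macrophages and epithelium.

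Of 10 tested receptors of calprotectin and S100 relatives, S100a16 alone had an unadjusted p of at most 0.05, beside 4.90% of all genes. S100a16 averaged 17.0 FPKM in the control and 21.5 FPKM in the model, without overlap. Its difference was 0.32 with an SE of 0.11 (unadjusted limma p of 0.0229, adjusted p of 0.934). With length-weighted gene FPKM it was 0.11, with an unadjusted p of 0.277. Ager, the receptor for advanced glycation end products that binds calprotectin, and S100a11, between 223 and 284 FPKM, were the most abundant of the list and overlapped between groups.

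Markers of other cells that the lung specimens hold are given beside these counts. Of 11 tested macrophage and monocyte markers, none was called or had an unadjusted p of at most 0.05, with a median difference of 0.004 and a summed level between 89.9 and 102 FPKM in the control and between 83.9 and 122 FPKM in the model. The most abundant was Csf1r, between 24.1 and 30.4 FPKM. Cd68 was above 20 FPKM in 4 libraries and at 1.30 and 1.21 FPKM in control rat 3 and model rat 2. Of 9 tested eosinophil and mast cell markers, none was called. An unadjusted p of at most 0.05 was found for 1 of the 9, beside 4.90% of all genes. The groups did not overlap for 2 of the 9, beside 10.7% of all genes. The difference in log2(FPKM + 1) was above 0 for 4 of the 9, beside 47.7% of all genes. Their sum was between 31.4 and 35.9 FPKM in the control and between 36.2 and 40.3 FPKM in the model. Most of that sum was Kit, which averaged 27.7 FPKM in the control and 32.5 FPKM in the model without overlap (unadjusted limma p of 0.0441, adjusted p of 0.934). The mast cell tryptase Tpsab1 averaged 0.0854 FPKM in the control and 0.0424 FPKM in the model without overlap, at a mean of 3.61 estimated reads (unadjusted limma p of 0.247, adjusted p of 0.934). In the same list, the eosinophil granule gene Epx stayed at or below 0.219 FPKM and the mast cell gene Cpa3 was between 1.34 and 3.49 FPKM. The means of Cpa3 were 2.56 FPKM in the control and 2.47 FPKM in the model, with overlap. Those of Tpsb2 were 0.639 FPKM in the control and 0.476 FPKM in the model, also with overlap. Of 9 tested red cell and platelet markers, none was called. The platelet receptor chain Gp1ba alone had an unadjusted p of at most 0.05, beside 4.90% of all genes. Gp1ba had means of 1.62 FPKM in the control and 1.21 FPKM in the model without overlap (unadjusted limma p of 0.0457, adjusted p of 0.934). The red cell and platelet list had summed levels between 2056 and 2781 FPKM in the control and between 2329 and 3625 FPKM in the model, mainly Hba-a2 and Hbb. The part of these cells in the members' values was not tested.

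The paper checked its model by Masson staining and reported many fibrous nodules in the model lungs and little collagen in the control. Beside that histology, the RNA of 15 genes of fibrosis was read here, all tested. None was called, against 1.53% of all genes, 11 of the 15 had a difference above 0, against 47.7% of all genes, and the median difference was 0.15 in log2(FPKM + 1). Their summed level was between 492.6 and 582.3 FPKM in the control and between 576.2 and 703.1 FPKM in the model. Col3a1, a fibrillar collagen, was at 174, 178 and 154 FPKM in the control rats and at 189, 204 and 233 FPKM in the model rats, without overlap (unadjusted limma p of 0.0365, adjusted p of 0.934). Lox, which cross-links collagen, also did not overlap and was lower in the model, at a mean of 16.3 FPKM in the control and 14.1 FPKM in the model (unadjusted limma p of 0.0736, adjusted p of 0.934). Timp1 and Mmp12 had lower means in the model too, with overlap. Fn1 (fibronectin) was between 59.9 and 98.6 FPKM and overlapped. Spp1 (osteopontin), which macrophages of scarred lung make, stayed at or below 0.361 FPKM in every library.

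**Figure D5:**
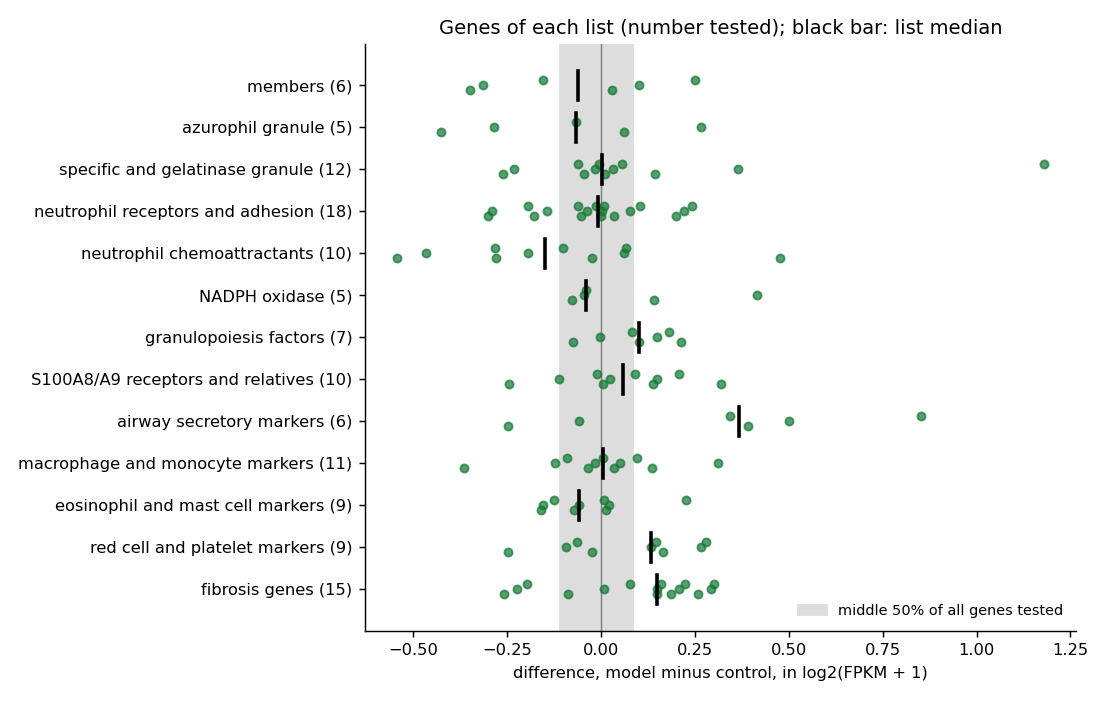
Difference between model and control in log2(FPKM + 1) (horizontal axis) of each tested gene, by list, with the number tested and a black bar at the list's median; grey marks the middle range of all genes, from -0.11 to 0.09. The median of the neutrophil genes lies inside the grey band, and the airway secretory list, with a median of 0.37 over 6 genes, lies furthest from it. In that list, Scgb3a1, Bpifb1 and Muc5b were far higher in model rat 3 than in any other library. The medians of the chemoattractants (-0.15), granulopoiesis factors (0.10), red cell and platelet markers (0.13) and fibrosis genes (0.15) also lie outside the band.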

How the data were processed

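Lung tissue of 3 control and 3 model rats was measured by rRNA-depleted RNA sequencing, 1 library per rat, and grouped by the condition in the labels. The authors trimmed reads with Cutadapt, assembled them with StringTie and deposited FPKM per transcript, estimated with StringTie and Ballgown. For mapping, the methods name Bowtie2 and Tophat2, while the submitters' processing notes name HISAT2, StringTie and TopHat. The genome build was not given in the sources used here. The authors also deposited per-base coverage, from which reads were estimated as coverage times length over 150 bases. Raw counts of back-splice reads, deposited by the authors, came from Tophat-fusion and CIRCexplorer; a scaled signal deposited beside them was not used here.

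FPKM was summed per gene name over names with an annotated transcript, and 19203 genes with FPKM above 0 in at least 3 of 6 libraries were tested with limma 3.58.1 (trend, R 4.3.3) on log2(FPKM + 1), which understates the change of low genes. A gene was called at an unadjusted p of at most 0.05 and a log2 ratio of group means of at least 1 in size; adjusted p-values are Benjamini-Hochberg over all genes or all transcripts. Exact two-sided permutation tests were run with scipy 1.17.1. Floors of 3 reads cover counting error only. The procedure was tested on simulated data. The members and lists were chosen with earlier results of these data known. Named were all members and their transcripts, and in each list the genes called and the 2 most abundant; for S100a8 and Prtn3 also the 3 genes of highest r; genes of a count of 7 or fewer and further list genes were named after their values were seen. Same-numbered control and model rats did not deviate together (r = 0.07, 0.03 and -0.07), so the numbers were not taken as pairs. Expression of Mpo was not analysed here.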

Additional observations from a re-analysis of the deposited data

How the results depend on the processing

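No member and no member transcript was called under pseudocount 0.1, no filter, a mean FPKM of at least 1, TPM, median-of-ratios scaling, length-weighted or annotated-only gene FPKM (genes only), a robust prior, the replicate block or leaving out any rat. Genes called numbered 293 in the main analysis, 80 with a mean FPKM of at least 1, which tests 13896 genes, 519 with annotated transcripts only, and between 302 and 396 without each rat in turn. With the replicate number as a block they numbered 311, with 0 below an adjusted p of 0.05 in place of 2, and the block changed no call of a member. Neutrophil pathway genes called numbered 0 in the main analysis. They numbered 1 with length-weighted FPKM (Il1a) and 1 with annotated transcripts only (Cd177), both lower in the model. When a rat was left out, they numbered between 0 and 1. Olfm4 (without control rat 2) and Il1r2 (without model rat 1) were lower in the model. Ltb4r (without control rat 3) and Slpi (without model rat 2) were higher. The cause was not tested. Differences in log2(FPKM + 1) that changed sign with annotated transcripts only were Csf3r (0.045), Padi4 (0.035), Myb (0.072) and Cd177 (-0.64), where assembled transcripts drop out. When single rats were left out, Prtn3 ran from -0.0068 to 0.053, ENSRNOT00000011694 from -0.11 to 0.21, ENSRNOT00000009081 from -0.040 to 0.093 and Cd177 from -0.46 to 0.87. Slpi passed both thresholds without model rat 2, at 2.03. Over all alternatives, the difference was between 0.01 and 0.19 for S100a8, -0.31 and -0.04 for S100a9, 0.11 and 0.48 for Lcn2, -0.53 and 0.045 for Csf3r, and -0.48 and 0.035 for Padi4. Depth limits Prtn3, Elane and Ltf, at 5.98 estimated reads or fewer per library.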
